A study of Mus musculus with 24 samples.

Results

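The inguinal fat pad of the mouse (inguinal white adipose tissue, IWAT) surrounds a lymph node, and a dissected piece of it can carry node cells. This account concerns methionine restriction (MR) in the libraries lowest in a lymph node transcript, called here the libraries without node. They were chosen by that 1 transcript, Ms4a1, which encodes the B cell surface protein CD20. A library was kept when Ms4a1 was below 25 CPM (reads scaled to a common library total) of its own total, which left 9 of the 24 libraries of the series, 5 MR and 4 control. The libraries just inside and just outside the threshold were oxidized casein MR 4 at 10.3 CPM and elemental MR 6 at 40.2 CPM. Ms4a1 ran from 0.614 to 10.3 CPM in the 9 libraries and from 40.2 to 181 CPM in the other 15, so no library lay near 25 CPM. These Ms4a1 values set the choice and carry no test.

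The kept libraries were elemental MR 2 and oxidized casein MR 1, 2, 4 and 6, against elemental control 2 and 5 and casein control 4 and 5. All mice were male, of strain C57BL6/J and 4 months old, ate their diet from week 5 of age for 12 weeks and were fasted for 4 h before sacrifice. Elemental MR and elemental control mice took their protein as elemental amino acids, with 0.17% and 0.86% methionine. Oxidized casein MR mice ate casein whose oxidation removed methionine, brought back to 0.17%, and casein control mice ate pelleted casein, with 0.86% methionine in control diets per the series design text. Casein oxidation and methionine level therefore change together in the casein libraries, and 4 of the 5 MR libraries are of that kind. The design text speaks of the liver transcriptome, whereas the title and sample source name IWAT. Each library has its own mouse number, and the number on a library here is only its order within its diet.

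White adipocytes store fat as triglyceride in a single large droplet. In the inguinal pad, some adipocytes can turn beige, with many mitochondria that burn fatty acids and with uncoupling protein 1 (UCP1), which lets the proton gradient run down as heat. The coactivators PGC-1 alpha and PGC-1 beta, working through the nuclear receptors PPAR alpha and the ERR family, switch on genes of fatty acid oxidation, the TCA cycle and the respiratory chain. As a pad expands, it lays down collagen-rich matrix, recruits macrophages and secretes leptin. Diets low in methionine are known to lower adiposity and to raise energy expenditure in mice.

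The libraries matched their label as fat. Adipoq, the adipokine adiponectin, stood at 2886 to 4788 CPM in MR and 3994 to 5587 CPM in control libraries, and Fabp4, an adipocyte fatty acid carrier, at 17168 to 26658 CPM in MR and 16219 to 26359 CPM in control libraries. Other lymph node genes were low in part. The summed T cell markers (16 genes) held 22.1 to 132 CPM in MR and 18.3 to 81.5 CPM in control libraries, against 412 to 1693 CPM in the 15 libraries with node. The 10 summed B cell markers held 54.9 to 170 CPM in MR and 226 to 481 CPM in control libraries, without overlap. They held 483 to 2487 CPM in the 15 libraries with node. That sum includes Ms4a1, so its gap between the kept and the other libraries is partly set by the choice. The nearest were casein control 5 at 481 CPM (Ms4a1 0.614 CPM) and elemental MR 6 at 483 CPM (Ms4a1 40.2 CPM). In the kept libraries Ighm, the heavy chain of IgM, made up most of the sum. It held 42.7 to 107 CPM in MR and 189 to 474 CPM in control libraries. Ighm held 179 to 959 CPM in the 15 libraries with node, so the controls lay within that range and the MR libraries below it.

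Other tissue was not absent. Acta1, the actin of skeletal muscle, reached 1102 CPM in elemental MR 2 and 2921 CPM in elemental control 2, against 10.3 to 163 CPM in the other 7 libraries, so 1 muscle-rich library lay on each side of the comparison. The 8 smooth muscle markers together held 211 to 398 CPM in MR and 367 to 663 CPM in control libraries. The 11 hepatocyte markers together held 323 to 1173 CPM in MR and 225 to 1431 CPM in control libraries. Depth was 7468336 to 16201962 reads in MR and 13211845 to 19868913 reads in control libraries. Since whole tissue was sequenced, fewer cells of a type and less RNA per cell cannot be told apart in any result below.

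**Figure D1:**
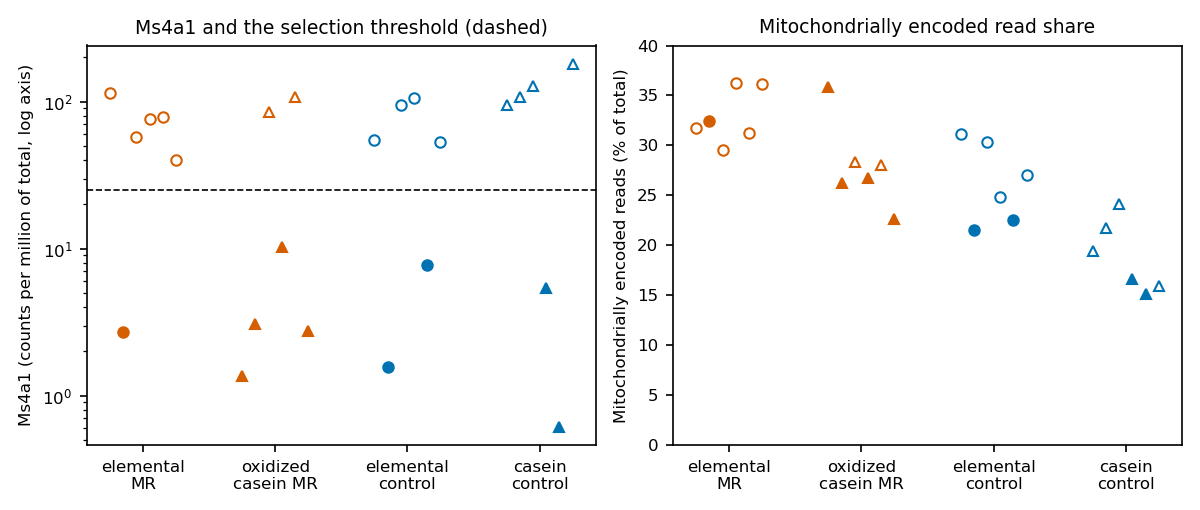
Ms4a1 (left, CPM of total, log axis, dashed line at 25 CPM) and the share of reads from the mitochondrial genome (right, percent) in all 24 libraries by diet, with 1 point per mouse. Filled points are the 9 libraries kept, whose mitochondrial shares lay at 22.6% to 35.8% in MR and 15.1% to 22.5% in control libraries.

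Across all genes, MR against control was fitted with protein source as an additive term (edgeR quasi-likelihood test, Benjamini-Hochberg adjusted p below 0.05, called below). Of 14204 genes tested, 618 were called (4.35%), 332 higher with MR (2.34%) and 286 lower (2.01%). An unadjusted p below 0.05 was reached by 2695 genes. Every MR library lay above every control library for 539 genes (3.79% of those tested) and below for 622 (4.38%). The median log2 fold change of all genes was 0.00. Leaving out both muscle-rich libraries, a choice made after seeing the data, left 157 calls, 70 higher and 87 lower, and all information on MR then came from the casein libraries. Leaving out 1 library at a time gave 174 to 574 calls, with 174 without casein control 5, 226 without elemental MR 2, 354 without casein control 4 and 387 without oxidized casein MR 4. Of 120 called genes named in the text (all but Bckdk), 40 stayed called without each of the 9 libraries in turn, all with their direction, and 50 stayed called without both muscle-rich libraries. Among the 40 were Crat, Acadl, Eci1, Ogdh, Ndufs6, Cox7b, Slc25a44, Adcy3 and Mfsd4b1 on the higher side and Igfbp4, Il1r2, Plppr4, Sult1e1, C6, C4b, Serping1, Sfrp2, Cavin3, Npr3, Gsta3, Tubb2a, Tubb6, Adamts5, Col1a1, Col5a1, Col6a2 and Col6a3 on the lower side. At the other end, Pck1 stayed called in 1 of the 9 runs. Cox8b, Acsm3, Ehhadh, Gpt2 and Nrg4 did so in 2, and Plin5, Ptchd4, Mlxipl and Shmt1 in 3.

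The genes ranked next by size of change are called ones with a mean log2 CPM of 2 or more. Several of those that rose most act in mitochondrial transport or fat burning. In this and the following sentences the 5 MR values are in the order elemental MR 2, then oxidized casein MR 1, 2, 4 and 6, and the 4 control values in the order elemental control 2 and 5, then casein control 4 and 5. All gene levels from here on are CPM with library totals scaled by TMM, unless the raw total is named. Slc25a34, a member of the mitochondrial carrier family (GRCm38, chr4:141618824-141623821), had the largest rise among them, with 30.7, 32.9, 19.5, 27.6 and 6.41 CPM in MR libraries, against 4.50, 4.88, 1.34 and 1.02 CPM in control libraries. All MR libraries lay above all controls, with oxidized casein MR 6 by far the lowest of them (log2 fold change 3.55, SE 0.58, edgeR adjusted p = 0.0194). Chchd10, a protein of the space between the mitochondrial membranes (chr10:75933130-75937747), had 1442, 1711, 979.6, 1260.0 and 1156 CPM in MR libraries, against 349.7, 602.2, 132.0 and 104.0 CPM in control libraries. Both casein controls lay below both elemental controls, and no MR library came near either (log2 fold change 2.87, SE 0.44, edgeR adjusted p = 0.0141).

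Slc25a48, another mitochondrial carrier, rose with a log2 fold change of 2.76 (SE 0.50, edgeR adjusted p = 0.0171). Cox8b, the subunit 8 form of complex IV found in muscle and brown fat, rose by 2.49 on the log2 scale (SE 0.52, edgeR adjusted p = 0.047). Its levels were 542.8, 716.5, 345.6, 344.4 and 241.0 CPM in MR libraries, against 102.5, 209.0, 79.5 and 36.5 CPM in control libraries. The other genes among the 15 largest rises above that level were Mfsd4b1 (2.54), Ppara (2.40), Hebp2 (2.34), Acsm3 (2.22), Plin5 (2.02), Ddo (1.74), Clstn3 (1.72), Ehhadh (1.72), Acacb (1.69), Hadhb (1.66) and Ppargc1b (1.63), all log2 fold changes. Among them, Plin5 coats lipid droplets that touch mitochondria, Ehhadh and Hadhb oxidize fatty acids in peroxisomes and mitochondria, Acsm3 activates medium-chain fatty acids, and Acacb makes the malonyl-CoA that restrains fatty acid entry into mitochondria.

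Regulators that switch on mitochondrial genes were among those that rose. Of the 19 tested genes of the regulator list, 4 were called higher and none lower, 16 had a positive log2 fold change, and the median was 0.30. Ppara, the nuclear receptor PPAR alpha, had 45.1, 43.4, 24.5, 30.9 and 21.6 CPM in MR libraries, against 9.10, 14.6, 7.27 and 2.22 CPM in control libraries (log2 fold change 2.40, SE 0.41, edgeR adjusted p = 0.0177). The MR and control ranges did not meet. Ppargc1b, which encodes PGC-1 beta, had 72.5, 80.1, 43.0, 54.98 and 42.9 CPM in MR libraries, against 18.5, 33.0, 19.1 and 14.7 CPM in control libraries (log2 fold change 1.63, SE 0.25, edgeR adjusted p = 0.0103). Ppargc1a, for PGC-1 alpha, moved less, with 24.1, 26.2, 19.9, 16.4 and 18.0 CPM in MR libraries and 13.3, 13.4, 11.7 and 6.73 CPM in control libraries (log2 fold change 1.03, SE 0.20, edgeR adjusted p = 0.0142). Esrrg, the receptor ERR gamma, rose from a low level, with 1.53 to 3.74 CPM in MR and 0.30 to 1.68 CPM in control libraries, which overlapped (log2 fold change 2.19, SE 0.44, edgeR adjusted p = 0.0171). For Esrra, its relative ERR alpha, the log2 fold change was 0.75 (SE 0.24, edgeR adjusted p = 0.107).

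**Figure D2:**
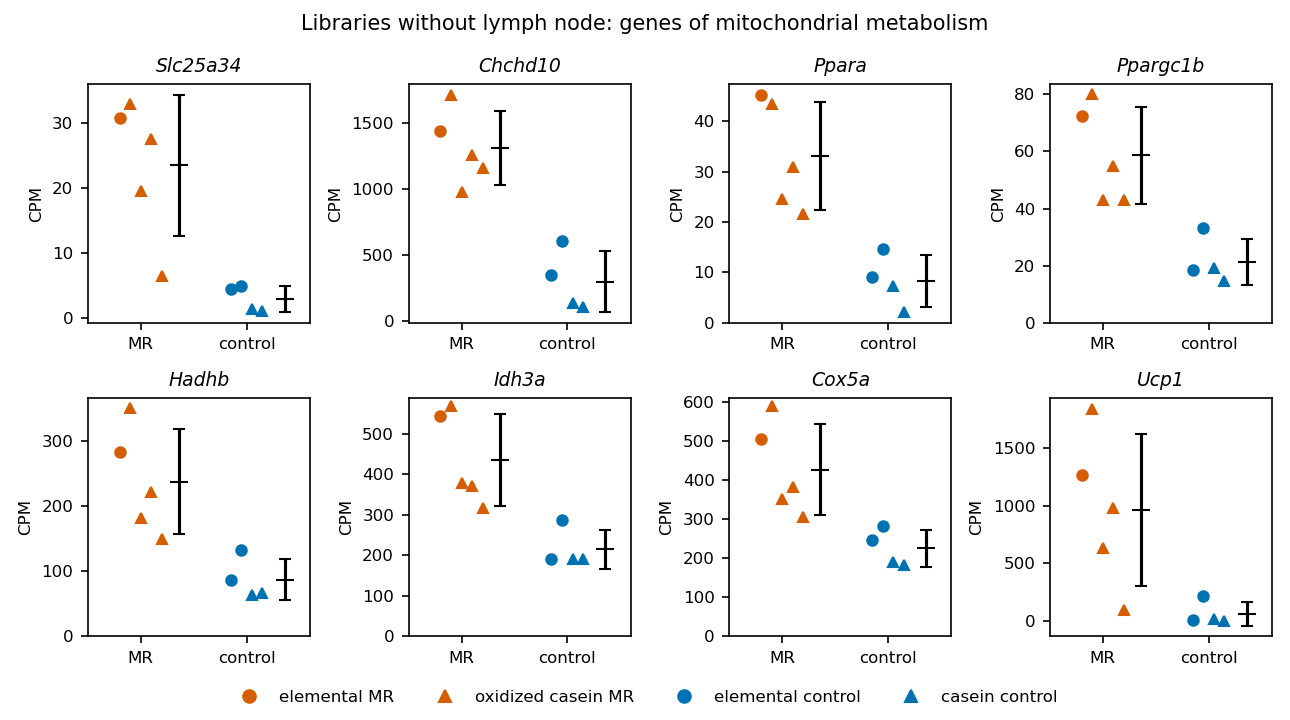
CPM (TMM scaled) of 8 genes in the 9 libraries, MR left and control right, with 1 point per mouse (circles, elemental diets; triangles, casein diets) and the mean ± SD beside each group. For all genes shown but Ucp1, the 5 MR points lie above the 4 control points; for Ucp1, oxidized casein MR 6 (97.9 CPM) lies below elemental control 5 (215.8 CPM).

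Ucp1, the uncoupling protein of heat-producing adipocytes, had 1262, 1835, 633.4, 976.3 and 97.9 CPM in MR libraries, against 15.2, 215.8, 19.6 and 6.73 CPM in control libraries. The lowest MR library was below the highest control library. The mean log2 CPM was 9.40 ± 1.65 in MR and 4.69 ± 2.14 in control libraries (SD, n = 5 and 4). A 2-sided exact permutation test that exchanged methionine level within protein source gave p = 0.0222, the smallest that its 45 arrangements can give. In edgeR, the log2 fold change was 5.27 (SE 1.55) and the adjusted p was 0.128, so Ucp1 was not called.

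Of the 24 tested thermogenic effectors, the proteins that carry out heat production and its fuel supply, 7 were called higher and none lower, all 24 had a positive log2 fold change, and the median was 2.05, against 0.00 for all genes. At an unadjusted p below 0.05 there were 19, against 2695 of 14204 for all genes. DESeq2 called 19 higher and none lower, against 651 higher of 16797 for all genes. Kcnk3, a potassium channel of brown and beige adipocytes, had 338.2, 362.9, 237.7, 289.8 and 197.3 CPM in MR libraries, against 141.4, 195.4, 95.4 and 141.0 CPM in control libraries (log2 fold change 1.14, SE 0.20, edgeR adjusted p = 0.0141). Clstn3, whose adipose form is made in thermogenic fat, had 60.8, 48.1, 27.5, 34.6 and 22.3 CPM in MR libraries, against 10.7, 23.4, 9.44 and 11.4 CPM in control libraries. Oxidized casein MR 6 fell just under elemental control 5 (log2 fold change 1.72, SE 0.29, edgeR adjusted p = 0.0141). Acot2, a mitochondrial thioesterase, rose by 1.13 on the log2 scale. Skeletal muscle shares some of these genes, and the 2 muscle-rich libraries are 1 MR and 1 control. Without them, 2 of the 24 genes were called and the median was 2.08.

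Fatty acid oxidation rose across most of its steps, with 18 of 23 tested genes called higher, none lower and a median log2 fold change of 0.83. Hadhb, the beta subunit of the trifunctional protein that performs the last steps of mitochondrial beta-oxidation, had 283.1, 351.6, 182.5, 221.7 and 149.8 CPM in MR libraries, against 86.8, 132.2, 63.2 and 66.4 CPM in control libraries (SE of the log2 fold change 0.27, edgeR adjusted p = 0.0141). Crat, which moves acetyl groups onto carnitine, had 154.8, 178.3, 129.5, 144.9 and 151.2 CPM in MR libraries, against 95.4, 93.1, 84.9 and 74.2 CPM in control libraries. The 2 groups were well apart (log2 fold change 0.85, SE 0.12, edgeR adjusted p = 0.00583). Acadl, the long-chain acyl-CoA dehydrogenase, rose by 1.11, Slc25a20, the carnitine-acylcarnitine carrier, by 1.39, and Eci1, which prepares unsaturated fatty acids for oxidation, by 0.93, all log2 fold changes. Without the 2 muscle-rich libraries, 6 of the 23 were called and the median was 0.92.

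In the TCA cycle list, which includes pyruvate dehydrogenase, 17 of 20 genes were called higher and none lower, with a median log2 fold change of 0.98. Idh3a, the catalytic subunit of NAD-dependent isocitrate dehydrogenase, had 543.9, 567.7, 378.1, 369.9 and 317.2 CPM in MR libraries, against 191.2, 287.2, 192.0 and 189.8 CPM in control libraries (log2 fold change 1.13, SE 0.18, edgeR adjusted p = 0.00927). The controls other than elemental control 5 were nearly level. Ogdh, of the 2-oxoglutarate dehydrogenase complex, rose by 1.08 and Pdha1, of pyruvate dehydrogenase, by 0.998, both log2 fold changes. Without the muscle-rich libraries, 2 of the 20 were called and the median was 1.02.

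The nuclear genes of the respiratory chain and ATP synthase moved together by a smaller amount. Of 79 tested, 60 were called higher and 1 lower, 76 had a positive log2 fold change and the median was 0.71. In complex I, which takes electrons from NADH, 30 of 36 were called higher and the median was 0.67. In complexes II and III the count was 12 of 14 (median 0.85), in complex IV, which reduces oxygen, 11 of 13 (median 0.75), and in ATP synthase 7 of 16 (median 0.52). Ndufa10 of complex I had 541.2, 725.9, 476.3, 487.9 and 407.8 CPM in MR libraries, against 278.8, 350.6, 256.6 and 224.1 CPM in control libraries (log2 fold change 1.01, SE 0.18, edgeR adjusted p = 0.0122). Cox5a of complex IV had 504.2, 589.0, 352.5, 382.7 and 304.4 CPM in MR libraries, against 247.4, 281.8, 189.9 and 183.2 CPM in control libraries (log2 fold change 1.06, SE 0.19, edgeR adjusted p = 0.0118). In both, the MR and control ranges did not meet, and oxidized casein MR 6 was the lowest MR library.

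Uqcrc2 (1.01) and Uqcrfs1 (1.06) of complex III, Sdhb (0.86) and Sdha (0.81) of complex II, Cox7b (0.97) and Cox4i1 (0.70) of complex IV, Ndufs6 (0.76) and Ndufb10 (0.65) of complex I and Atp5j2 (0.78) and Atp5b (0.72) of ATP synthase were called higher as well, with the log2 fold change in brackets. The 1 gene called lower was Atpif1, which encodes a protein that inhibits ATP synthase when it runs in reverse. Its levels were 31.3, 38.1, 51.1, 39.3 and 37.7 CPM in MR libraries, against 52.3, 52.5, 58.0 and 74.7 CPM in control libraries (log2 fold change -0.70, SE 0.13, edgeR adjusted p = 0.0138). Without the 2 muscle-rich libraries, 5 of the 79 genes were called higher and none lower by edgeR, while the medians of complex I, complex IV and ATP synthase were 0.69, 0.86 and 0.63. At an unadjusted p below 0.05 there were 70 then.

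Promoter sequence was examined because these genes moved together. Nuclear respiratory factor 1 (NRF1) is a transcription factor known for its sites at respiratory genes, and the letters GCGCATGCG were searched on both strands of RefSeq promoter windows (GRCm38.p6, 250 bases before to 50 after the start). A window was matched by symbol for 255 of the 332 genes called higher and for 209 of the 286 called lower. The letters stood in 19 of the 255 (7.45%) and in 1 of the 209 (0.478%), against 3.95% of 10439 tested genes with a window and 1.95% of all 27025 genes with one. Among the members of the respiratory, TCA cycle and fatty acid oxidation lists they stood in 9 of 78 called higher (11.5%), against 12 of all 102 tested (11.8%). The ERR letters TCAAGGTCA, searched on both strands, were in the windows of none of the 255 genes and of 0.326% of tested genes. They were in 2 of the 102 list members tested (1.96%) and in none of the 78 called higher. A match describes letters only. A gene counted when any of its RefSeq windows held the letters, and the window with the most matches is shown. Shown are the windows of 1 regulator and 2 respiratory subunits that hold the NRF1 letters on both strands, overlapping by 8 bases and in capitals, on the strand of the gene: Ppara at chr15:85735526-85735825 (plus strand), Cox6a1, a complex IV subunit, at chr5:115348909-115349208 (minus strand), and Uqcrc1, a complex III core subunit, at chr9:108936398-108936697 (plus strand).
Ppara: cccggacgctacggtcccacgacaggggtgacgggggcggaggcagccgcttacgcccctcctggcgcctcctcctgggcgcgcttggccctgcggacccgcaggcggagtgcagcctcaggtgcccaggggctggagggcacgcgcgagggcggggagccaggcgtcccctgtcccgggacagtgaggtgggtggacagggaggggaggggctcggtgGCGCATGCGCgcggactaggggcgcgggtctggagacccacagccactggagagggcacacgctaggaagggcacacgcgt
Cox6a1: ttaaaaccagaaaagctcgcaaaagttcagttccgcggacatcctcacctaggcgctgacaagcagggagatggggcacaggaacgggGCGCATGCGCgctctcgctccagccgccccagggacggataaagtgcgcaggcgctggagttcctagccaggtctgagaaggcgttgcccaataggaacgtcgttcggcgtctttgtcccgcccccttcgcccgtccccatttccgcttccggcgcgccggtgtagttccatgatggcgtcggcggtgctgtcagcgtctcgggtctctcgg
Uqcrc1: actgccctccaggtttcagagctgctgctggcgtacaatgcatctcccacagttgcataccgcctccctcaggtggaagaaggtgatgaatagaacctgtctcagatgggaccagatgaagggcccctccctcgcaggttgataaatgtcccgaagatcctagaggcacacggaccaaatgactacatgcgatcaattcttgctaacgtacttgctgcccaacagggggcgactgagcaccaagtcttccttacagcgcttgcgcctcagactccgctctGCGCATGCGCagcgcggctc
Counted from the RefSeq start of the window shown, the capitals begin 31 bases before it in Ppara, 162 bases before it in Cox6a1 and 30 bases after it in Uqcrc1. Ppara rose by 2.40, Cox6a1 by 0.81 and Uqcrc1 by 0.89 on the log2 scale, so the same letters stood beside changes of unlike size.

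The transcripts of the mitochondrial genome, which encodes core subunits of the same complexes, were higher too. They took 32.4%, 35.8%, 26.2%, 26.7% and 22.6% of the reads of the MR libraries, against 21.6%, 22.5%, 16.6% and 15.1% in control libraries. The lowest MR library was level with the highest control library, and the casein controls lay below the elemental controls. The means were 28.7% ± 5.28 in MR and 18.9% ± 3.64 in control libraries (SD, n = 5 and 4; 2-sided exact permutation within protein source, p = 0.0222, the smallest possible). Of the 8 mitochondrially encoded genes tested, 7 were called higher and none lower, with a median log2 fold change of 1.11. For mt-Cytb, of complex III, the log2 fold change was 0.99 (SE 0.21, edgeR adjusted p = 0.0222), and for mt-Co1, of complex IV, it was 1.08 (SE 0.21, edgeR adjusted p = 0.0156). Without the muscle-rich libraries edgeR called none of the 8 (7 at an unadjusted p below 0.05), with a median of 1.17, and the difference in share was 9.77 percentage points, against 9.82 with them.

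Among the 26 mitochondrial carriers, 6 were called higher and none lower (11 higher by DESeq2), and the median was 0.40 on the log2 scale. Besides Slc25a34 and Slc25a48 they included Slc25a42, a carrier of coenzyme A (1.15), and Slc25a44, which brings branched-chain amino acids into mitochondria (0.63). Slc25a44 had 106.7, 112.5, 94.9, 102.2 and 116.9 CPM in MR libraries, against 70.2, 82.3, 64.1 and 66.4 CPM in control libraries (SE 0.11, edgeR adjusted p = 0.012). The list of branched-chain amino acid breakdown had 7 of 21 called higher, none lower and a median of 0.27. These 7 include Slc25a44 itself and Bckdk, the kinase that inhibits the branched-chain keto acid dehydrogenase. Dbt, of that dehydrogenase, had 86.3, 95.5, 90.3, 85.2 and 92.5 CPM in MR libraries, against 50.0, 58.7, 69.1 and 59.9 CPM in control libraries (log2 fold change 0.55, SE 0.11, edgeR adjusted p = 0.0141). Bckdhb of the same complex was also called (0.51).

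Of 24 fatty acid synthesis genes, 3 were called higher (Acacb, Acsl1 and the carbohydrate-sensing factor Mlxipl) and none lower by edgeR, with 12 at an unadjusted p below 0.05, and the list median was 0.55 on the log2 scale. DESeq2 called 11 of 25 higher. Fasn, the synthase itself, had 6052, 6951, 3835, 4726 and 3717 CPM in MR libraries, against 4923, 5062, 1761 and 1619 CPM in control libraries. The elemental controls lay within the MR range and the casein controls far below it (log2 fold change 1.12, SE 0.28, edgeR adjusted p = 0.0503). Fasn was past the threshold without the 2 muscle-rich libraries (1.51, edgeR adjusted p = 0.0367). Scd1, the stearoyl-CoA desaturase, had a log2 fold change of 0.77 (edgeR adjusted p = 0.0807). Of 15 glyceride synthesis genes, 3 were called higher: Agpat3 (0.69), Dgat1 (0.63) and Pck1 (0.68), an enzyme that supplies glycerol phosphate. DESeq2 called 6 of the 15 higher and 1 lower. Of 20 genes of glycolysis and glucose entry, 2 were called higher, Aldoa (0.93) and Gpi1 (0.95), with a median of 0.78, and DESeq2 called 8. Gk, glycerol kinase, had 64.3, 75.7, 39.6, 50.1 and 14.3 CPM in MR libraries, against 7.42, 14.0, 7.97 and 11.9 CPM in control libraries, without overlap, and was not called (log2 fold change 2.31, SE 0.51, edgeR adjusted p = 0.0543).

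**Figure D3:**
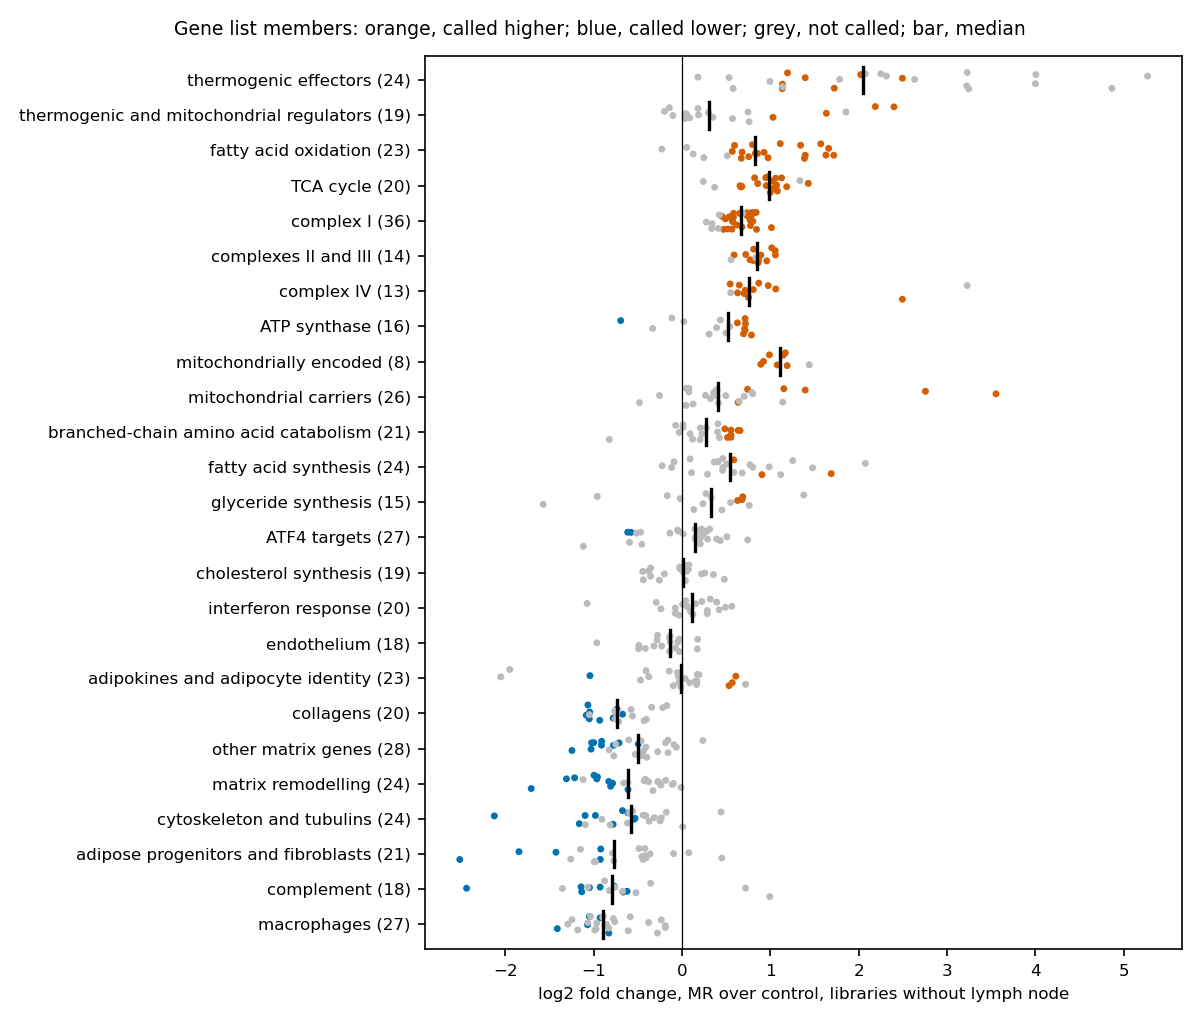
Log2 fold change, MR over control, of every tested member of 25 gene lists in the 9 libraries, with the number tested in brackets. Orange and blue points were called higher and lower, grey points were not called, and the bar is the list median, which runs from 2.05 for thermogenic effectors to -0.89 for macrophages.

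The genes that fell included insulin-like growth factor binding proteins. Igfbp4 (chr11:99041244-99054392) had 220.4, 197.0, 296.5, 253.0 and 258.6 CPM in MR libraries, against 497.5, 580.6, 560.2 and 720.8 CPM in control libraries. The highest MR library was at 296.5 CPM and the lowest control at 497.5 CPM (log2 fold change -1.33, SE 0.14, edgeR adjusted p = 0.00296). It stayed called without each of the 9 libraries in turn, between -1.42 and -1.23. Igfbp5 fell by 1.15 and Igfbp6 fell by 0.85 on the log2 scale. These 3 were the only called genes among 19 of insulin and growth signalling, all lower, and the list median was -0.05. Lep, which encodes leptin, had 236.1, 296.0, 287.6, 185.6 and 194.2 CPM in MR libraries, against 438.9, 778.7, 476.9 and 2073 CPM in control libraries. The groups did not overlap, and casein control 5 was far above the rest. The mean log2 CPM was 7.88 ± 0.31 in MR and 9.58 ± 1.03 in control libraries (SD, n = 5 and 4; 2-sided exact permutation within protein source, p = 0.0222, the smallest possible), while edgeR gave a log2 fold change of -2.05 with an adjusted p of 0.0635. Npr3, the clearance receptor for natriuretic peptides, which promote fat breakdown, fell by 1.04 on the log2 scale (SE 0.18, edgeR adjusted p = 0.0101). It was the 1 called lower of 23 adipokine and adipocyte identity genes, of which Adipor2, Adig and Nrg4 were called higher.

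Of 72 tested collagens, other matrix genes and remodelling enzymes, 27 were called lower, none higher, and 71 had a negative log2 fold change, with a median of -0.61. Col1a1, a chain of type I collagen, had 374.3, 479.0, 652.6, 494.1 and 534.2 CPM in MR libraries, against 886.5, 1096, 950.0 and 1035 CPM in control libraries (log2 fold change -1.05, SE 0.15, edgeR adjusted p = 0.00583). In the MR group oxidized casein MR 2 was highest and elemental MR 2 lowest, and all were below the controls. Of 20 collagens 8 were called (14 of 21 by DESeq2), with a median of -0.74, among them Col6a2 (-1.05), Col5a1 (-1.07), Col6a3 (-0.93) and Col5a2 (-0.67). Of 28 other matrix genes 9 were called, with a median of -0.49, including Fn1, fibronectin (-1.25), Efemp1 (-1.03), Vcan, versican (-1.03), Mfap5 and Lama2 (-0.78).

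Of 24 remodelling genes 10 were called lower, with a median of -0.61. Pcolce2, an enhancer of procollagen processing, had 15.1, 18.0, 36.6, 25.8 and 24.4 CPM in MR libraries, against 39.5, 54.5, 51.8 and 125.2 CPM in control libraries (log2 fold change -1.71, SE 0.29, edgeR adjusted p = 0.0172). Pcolce (-0.997), the proteases Adamts5 (-1.31), Adamts2 (-0.96) and Bmp1 (-0.83) and the collagen-degrading cathepsin Ctsk (-1.22) were called too, so both makers and breakers of matrix were among them. Of 21 progenitor and fibroblast genes 5 were called lower (Cd34, Sfrp2, Dpt, Cd248 and Sfrp4), with a median of -0.77, and DESeq2 called 11. Sfrp2, a secreted Wnt modulator, had 3.30, 9.71, 9.38, 10.2 and 12.0 CPM in MR libraries, against 16.6, 30.2, 35.1 and 22.3 CPM in control libraries (log2 fold change -1.85, SE 0.29, edgeR adjusted p = 0.0107). Smooth muscle actin Acta2 was lower too but not called (log2 fold change -0.996, edgeR adjusted p = 0.0872). It stood at 45.7 to 126 CPM of the raw total in MR and 132 to 201 CPM in control libraries. The part of other stromal cells in the result was not tested. Without the muscle-rich libraries, 10 of the 72 matrix genes were called lower and the collagen median was -0.70.

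Of 24 tested tubulins and other cytoskeletal genes, 9 were called lower and none higher, with a median of -0.58. Tuba1a, an alpha-tubulin, had 273.4, 197.1, 296.3, 223.3 and 139.7 CPM in MR libraries, against 618.6, 879.1, 633.3 and 1742 CPM in control libraries (log2 fold change -2.13, SE 0.37, edgeR adjusted p = 0.0227). Casein control 5 was again the highest. Tubb6 (-1.16), Tubb2a (-1.10), Tuba1b (-0.98) and Tubb5 (-0.68) were called as well. Tubulin genes resemble each other closely, and how reads shared between them were counted is not given in the sources used here. Cavin3, a coat protein of caveolae, had 153.3, 111.8, 133.2, 114.9 and 107.2 CPM in MR libraries, against 309.1, 383.4, 335.6 and 698.3 CPM in control libraries (log2 fold change -1.82, SE 0.24, edgeR adjusted p = 0.00695).

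Of 27 tested macrophage genes, 5 were called lower and none higher, all 27 had a negative log2 fold change and the median was -0.89. DESeq2 called 16 of 28 lower. Cd68, a lysosomal protein of macrophages, had 8.35, 12.3, 17.6, 12.5 and 12.4 CPM in MR libraries, against 17.6, 37.4, 22.3 and 44.6 CPM in control libraries (log2 fold change -1.41, SE 0.29, edgeR adjusted p = 0.0257). The highest MR and the lowest control library were level. C1qa (-0.93), Adgre1, which encodes F4/80 (-1.05), Fcgr3 (-0.83) and the lysozyme Lyz2 (-1.07) were the others. Of 18 complement genes, 8 were called lower (14 of 19 by DESeq2), with a median of -0.80. C4b, of the classical pathway, had 87.3, 108.9, 117.9, 109.8 and 109.5 CPM in MR libraries, against 169.9, 138.5, 285.4 and 262.4 CPM in control libraries (log2 fold change -1.14, SE 0.12, edgeR adjusted p = 0.00296). Its near-identical copy C4a may share its reads. C6, of the membrane attack complex, fell by 2.44 and Serping1, the C1 inhibitor, fell by 1.14 on the log2 scale. Ighm was also lower by its ranges above but not called (edgeR adjusted p = 0.0597). Granulocyte and mast cell markers summed to 35.8 to 90.0 CPM of the raw total in MR and 54.7 to 124 CPM in control libraries. The part of these cells in the result was not tested. Without the muscle-rich libraries, edgeR called none of 28 macrophage genes, with a median of -0.66, and 4 of 18 complement genes. At an unadjusted p below 0.05 it gave 18 of the 28.

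**Figure D4:**
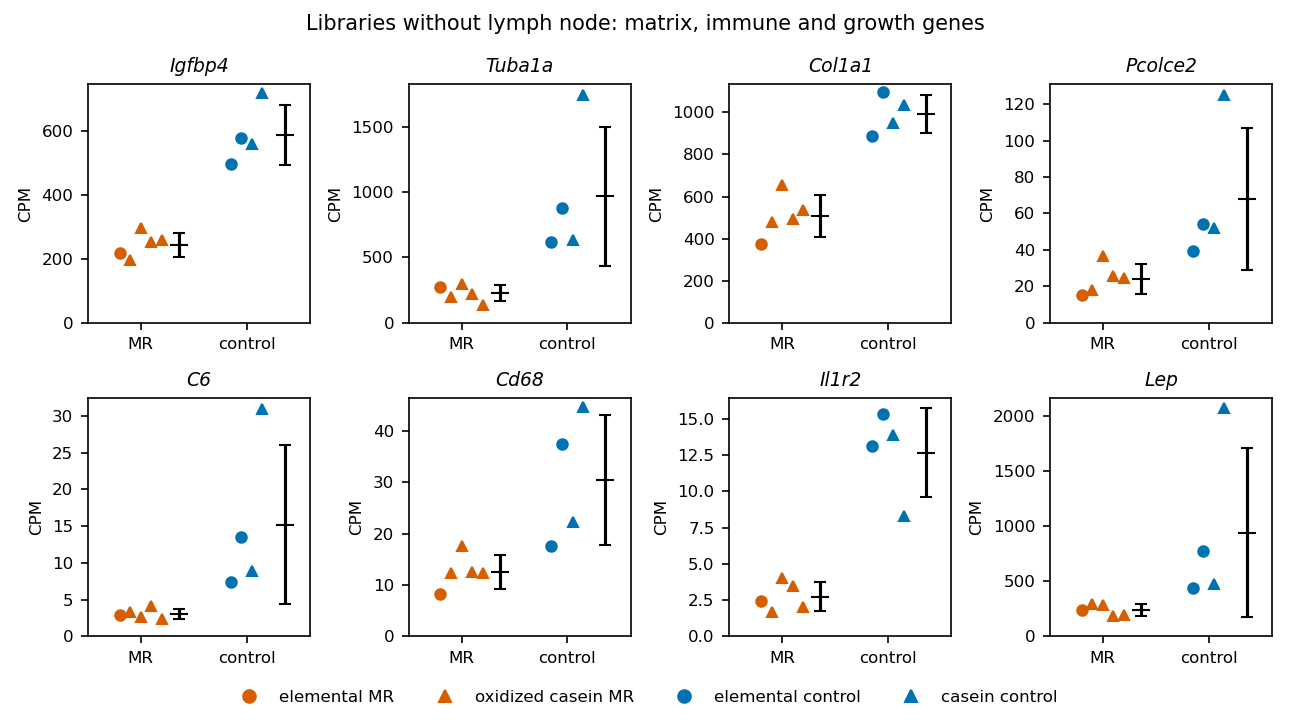
CPM (TMM scaled) of 8 genes in the 9 libraries, MR left and control right, with 1 point per mouse (circles, elemental diets; triangles, casein diets) and the mean ± SD beside each group. The MR points lie below the control points for all but Cd68, where they meet near 17.6 CPM, and casein control 5 is the highest control for 6 of the 8 genes.

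Among called genes with a mean log2 CPM of 2 or more, the largest fall was that of Plppr4, a lipid phosphatase-related membrane protein, at 0.41 to 1.08 CPM in MR and 2.67 to 24.7 CPM in control libraries (log2 fold change -4.03, SE 0.61, edgeR adjusted p = 0.0109). Without casein control 5, at 24.7 CPM, its log2 fold change was -2.72. Sult1e1, which inactivates oestrogens by sulfation, had 1.65, 1.97, 0.716, 1.48 and 1.73 CPM in MR libraries, against 7.02, 11.1, 13.3 and 5.41 CPM in control libraries (log2 fold change -2.63, SE 0.35, edgeR adjusted p = 0.00501). Il1r2, the decoy receptor that traps interleukin-1 (chr1:40074079-40125231), had 2.44, 1.67, 4.04, 3.50 and 2.03 CPM in MR libraries, against 13.1, 15.4, 13.9 and 8.29 CPM in control libraries. All MR libraries lay below all controls (log2 fold change -2.13, SE 0.29, edgeR adjusted p = 0.00501). The other falls among the 15 largest were those of Wfdc17 (-1.95), the amino acid transporter Slc7a8 (-1.86), Cyp2e1, a cytochrome P450 (-1.65), Ptchd4 (-1.54), Slc41a3 (-1.51), Trabd2b (-1.48) and Cldn22 (-1.47), beside Tuba1a, C6, Sfrp2, Cavin3 and Pcolce2.

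Calls among genes that answer amino acid lack and sulfur supply are set against 618 of 14204 for all genes (4.35%). Of 27 tested targets of ATF4, the factor switched on when amino acids run short, none was called higher by edgeR and 1 by DESeq2. Called lower by edgeR were 2, Nupr1 (-0.58) and Gpt2 (-0.62). At an unadjusted p below 0.05, 5 were higher and 5 lower, against 2695 of 14204 for all genes in either direction. The list median was 0.15. Asns, asparagine synthetase, had 34.1, 38.8, 34.7, 32.1 and 45.7 CPM in MR libraries, against 31.6, 35.6, 30.3 and 35.2 CPM in control libraries (log2 fold change 0.15, SE 0.13, edgeR adjusted p = 0.629). Psat1, of serine synthesis, had a log2 fold change of -0.46 (SE 0.18, edgeR adjusted p = 0.172). Of 23 methionine cycle and transsulfuration genes, Ahcyl1 was called higher (0.79) and Nnmt, which uses up methyl groups, lower (-0.74), with a median of 0.04. Of 14 folate genes, Shmt1 was called higher, while 10 had a negative log2 fold change and the median was -0.14. At an unadjusted p below 0.05, 5 of the 14 were lower and 1 higher. Of 22 glutathione and NRF2 genes, Gsta3, a glutathione transferase, was called lower, with 24.2, 38.8, 31.8, 31.1 and 30.5 CPM in MR libraries, against 68.5, 54.8, 54.4 and 68.1 CPM in control libraries (log2 fold change -1.04, SE 0.14, edgeR adjusted p = 0.00549).

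No member was called by edgeR among 19 cholesterol synthesis, 16 ER stress, 18 endothelial, 20 interferon response, 16 proliferation, 18 clock and 13 MHC class II genes. At an unadjusted p below 0.05, 1 of the cholesterol, 1 of the ER stress, 3 of the endothelial, 2 of the interferon, 3 of the proliferation, 1 of the clock and 7 of the MHC class II genes passed. Of all genes, 2695 of 14204 passed. DESeq2 called 1 clock gene higher and 7 MHC class II genes lower, and none in the other 5 lists. The medians lay between -0.70 for MHC class II and 0.13 for the clock. Among 15 adrenergic and cAMP signalling genes, Adcy3, an adenylate cyclase, was called higher, with 26.9, 24.7, 29.8, 28.4 and 28.0 CPM in MR libraries, against 13.3, 15.6, 16.1 and 14.9 CPM in control libraries (log2 fold change 0.86, SE 0.12, edgeR adjusted p = 0.00583). Gamt, which makes creatine, was the 1 gene called among 9 of creatine and calcium cycling (-1.12). Fabp5 (0.71) was the 1 called of 11 fatty acid uptake genes, and Plin5 the 1 called of 15 lipolysis and lipid droplet genes (4 by DESeq2). Over all genes 618 of 14204 were called by edgeR (4.35%), and single calls in lists this small were not tested against that share.

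The 15 libraries with lymph node RNA (7 MR and 8 control) share no mouse with the 9, and the same model was fitted to them separately. Of the 15, 9 were on elemental and 6 on casein diets, against 3 and 6 of the 9. Node status and protein source were thus mixed, and a difference between the sets cannot be assigned to the node. There edgeR called 352 of 14186 genes (2.48%), 247 higher (1.74%) and 105 lower (0.74%). Of the 332 genes called higher without node, 327 had the same sign with node and 116 were also called, which is 34.9% of the first list and 47% of the second. Of the 286 called lower, 283 were tested with node, 276 had the same sign and 53 were also called, which is 18.5% of the first list and 50.5% of the second. None was called in the opposite direction. The share of equal sign over all genes is not given here, so these counts have no background beside them. Median log2 fold changes of these genes were 0.77 without and 0.50 with node on the higher side, and -0.84 without and -0.34 with node on the lower side. The genes were chosen for their size in the first set, so a smaller median in the second set follows from that choice and the difference is a description. Leaving out 1 library at a time gave 95 to 790 calls with node. Igfbp4 fell in both sets (-1.33 without node and -1.05 with node), as did Slc7a8 (-1.86 and -1.13), whereas Slc25a34 rose in both (3.55 and 2.84).

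**Figure D5:**
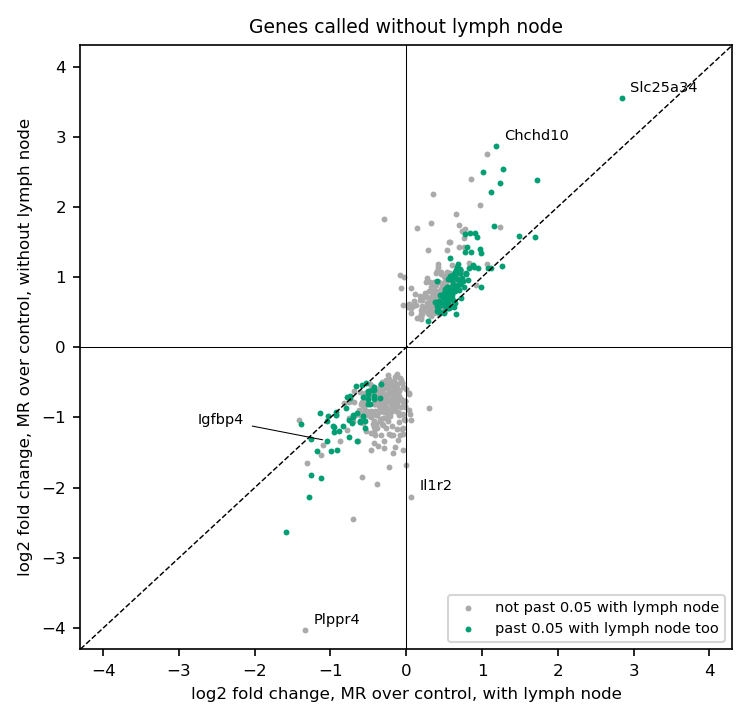
Log2 fold change, MR over control, with lymph node (horizontal, 15 libraries) and without it (vertical, 9 libraries) for genes called without node, with the line of equal change dashed. Green points were called in both sets; Slc25a34 lies at 2.84 and 3.55, and Il1r2 at 0.06 and -2.13.

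The difference between the MR effects of the 2 sets, tested as an interaction in all 24 libraries, was called for 1 of 15655 genes (0.00639%), with 1030 genes at an unadjusted p below 0.05. That gene was Il1r2, whose log2 fold change was -2.13 without node and 0.06 with node (difference -2.30, SE 0.35, edgeR adjusted p = 0.00988). The difference was -2.26 without both muscle-rich libraries (edgeR adjusted p = 0.106) and -2.16 in limma voom (adjusted p = 0.136), neither called, and it stayed called without each of the 9 libraries in turn, between -2.61 and -2.18. In the libraries with node, its median level was 4.53 CPM in MR libraries (3.64 to 8.24 CPM) and 5.44 CPM in control libraries (2.84 to 6.29 CPM). Control libraries without node held 8.29 to 15.4 CPM. The 2 sets were scaled by TMM separately, so these levels are not on 1 scale. Node status was set by a measured transcript and not assigned, and it was mixed with protein source as given above. With a protein source by methionine term added, the difference for Il1r2 was -2.43 (edgeR adjusted p = 0.00413). The next smallest p-values for a more negative effect without node were those of Capg, St14, Crip1 and Wfdc17 and, for a more positive one, Acox2, Ccdc18, Slain1, Gm45495 and Fads2, none of them called (edgeR adjusted p of 0.684 for Capg and 0.723 for the others). For macrophage genes, the median log2 fold change was -0.89 without and -0.24 with node, and 13 of the list differed at an unadjusted p below 0.05, none after adjustment. For complex I it was 0.67 without and 0.47 with node, and for collagens -0.74 and -0.42. For the 11 hepatocyte markers it was 1.09 without and -2.2 with node. Of these markers, 10 differed at an unadjusted p below 0.05 and none after adjustment. Their sum was highest in elemental control 6, a library with node, at 10129 CPM of the raw total.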

How the data were processed

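IWAT of 24 mice was profiled with the QuantSeq 3′ mRNA kit and 50 bp forward reads, per the labels' protocols. The authors deposited whole-number read counts for 16821 Ensembl genes, and the smallest gene total in that table is 72 reads over all libraries. Per the submitters' processing notes, GRCm38 (mm10), R 3.4.3 and DESeq2 1.18.1 were used. Which aligner and read counter made the table, and whether strand was used, is not given in the sources used here, so overlapping antisense genes cannot be told apart. A deposited normalized table was not used. Symbols and coordinates came from GENCODE M21 (16771 genes matched).

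Libraries with Ms4a1 below 25 CPM of the raw total were kept. Tests on these counts ran in edgeR 4.0.16 under R 4.3.3 (filterByExpr on methionine level, which removed 2617 genes, TMM, robust quasi-likelihood F test, 2-sided, protein source additive) and Benjamini-Hochberg adjustment over all genes tested. SE is the log2 fold change over the square root of F. Alternatives used limma 3.58.1 and DESeq2 1.42.0. The mitochondrial share, Ucp1 and Lep (log2 CPM, prior count 2) had exact permutation tests within protein source, 45 arrangements, adjusted together (adjusted p = 0.0222 each). Totals ran from 7468336 to 19868913 reads over the 24 libraries, and reads carry no molecular identifiers. Each library is 1 mouse, so errors are those between mice. No 2 libraries of the same diet agreed within counting error (60 pairs, smallest chi-square per degree of freedom 5.84). The fits were tested on simulated data.

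The libraries, the 49 gene lists (11 of them of other cell types) and the rule for named genes were chosen with earlier results of these data known. The rule named the 15 largest called changes in each direction (mean log2 CPM 2 or more), then the 5 members of each list with the smallest p, 13 fixed genes (among them Ucp1, Lep, Fasn, Scd1, Asns, Psat1, Igfbp4 and Gk), and the 5 smallest p in each direction of the difference between sets. Cox6a1 and Uqcrc1 were named after their promoters were seen, and Bckdk after its values were. Dhrs9, also among the fixed genes, is described among the flagged results. Some genes are not reported here.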

Additional observations from a re-analysis of the deposited data

Results flagged for a closer look

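Of 262 groups of 4 or 5 libraries examined (Dixon's test at the 95% level, MR and control apart, for the genes named and the mitochondrial share), 13 held a library apart from the others, and chance gives about 1 in 20. Values are log2 CPM. In elemental MR 2, Sfrp2 stood at 1.79 (3.25 to 3.60 in the other MR libraries) and C4b at 6.45 (6.77 to 6.88). In oxidized casein MR 2, Col5a1 stood at 6.90 (6.19 to 6.39 in the others), Col6a3 at 8.24 (7.59 to 7.75) and S100a6 at 8.87 (8.37 to 8.51). Dgat1 was at 8.79 in oxidized casein MR 6 (8.37 to 8.45), and Cox6a1 at 10.9 in oxidized casein MR 1 (10.3 to 10.5). Among control libraries, elemental control 5 stood apart for Slc25a20 at 6.42 (5.45 to 5.56), Idh3a at 8.17 (7.57 to 7.59) and Dhrs9, a retinol dehydrogenase, at 1.31 (-1.08 to -0.74). Dhrs9 had a log2 fold change of 3.10 (SE 0.81, edgeR adjusted p = 0.0657). Adipor2 was at 9.14 in elemental control 2 (8.79 to 8.84), and casein control 5 stood apart for Efemp1 at 6.10 (5.39 to 5.50) and Vcan at 3.31 (3.82 to 3.90).

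The effect of MR on Il1r2 differed between the libraries without and with lymph node by -2.30 on the log2 scale (interaction, edgeR adjusted p = 0.00988), and it was the 1 gene of 15655 with a called difference.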

How the results depend on the processing

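No direction of a named gene turned in any alternative run. The 618 calls without lymph node became 1276 with DESeq2, 1216 in a fit to all 24 libraries, 1048 with Ms4a1 below 50 CPM, 387 with Ms4a1 below 10 CPM, 165 in casein libraries only and 157 without both muscle-rich libraries, and between 174 and 574 without 1 library. Without casein control 4 the split was 95 higher and 259 lower, against 332 and 286. Limma voom, median-of-ratios scaling, either filter, no source term and no mitochondrial reads gave 433 to 794. With lymph node, 352 became 755 with DESeq2 and 95 to 790 without 1 library, under 1.5 times less or more in 7 of 15 cases. The lowest were 95 without oxidized casein MR 3, 116 without oxidized casein MR 5, 151 without elemental control 4, 153 without elemental MR 4, 174 without elemental control 6, 196 without elemental MR 6 and 220 without elemental MR 1, and the highest was 790 without elemental control 1. The difference between sets, 1 call (Il1r2), was 4 with DESeq2, 0 with limma voom (805 at an unadjusted p below 0.05), 0 without both muscle-rich libraries (1161) and 1 without each of the 9 libraries in turn.

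The difference in mitochondrial read share was 8.05 to 11.3 percentage points without 1 library and 9.77 without both muscle-rich libraries, that of Ucp1 4.06 to 5.72 log2 CPM and 4.23, and that of Lep -1.96 to -1.22 and -1.96. Exact permutation p-values then ran from 0.0333 to 0.0667, and all 3 were 0.0667 without both muscle-rich libraries, the smallest that 15 arrangements can give. With Ms4a1 below 10 CPM, Ucp1 differed by 4.57 log2 CPM (exact permutation p = 0.0667). No paired analysis was possible because the replicate numbers are an order within each diet and each mouse has its own number. With 5 and 4 libraries, of which 1 and 2 are elemental, MR effects could not be compared between protein sources. Ucp1 and Lep passed the permutation test, adjusted over 3 tests, and not edgeR, adjusted over all genes tested. Their unadjusted edgeR p-values were 0.0134 and 0.00347, so the 2 results differ in their adjustment.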
